A study of Mus musculus with 14 samples.

Results

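Acute inflammatory mediators were followed in the gut muscularis of Carmn iKO and WT mTmG mice, through 10 genes chosen by name out of 40481 genes in the bulk count table. They are 3 cytokines of the interleukin-6 family (Il6, Il11 and Lif), 3 other cytokines (Il1b, Tnf and Il33), 2 enzymes (Ptgs2 and Nos2), the acute phase protein gene Saa3 and the feedback inhibitor Socs3. All 10 passed the filter on low counts that left 20886 genes for testing.

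The muscularis is the layer of smooth muscle around the gut, which also holds enteric neurons and glia, interstitial cells and resident macrophages. Bulk RNA-seq covered 4 groups of 3 libraries, namely Carmn iKO colon (tags m1, t4 and t6), WT mTmG colon (t1, t6 and t7), Carmn iKO jejunum (m1, t1 and t4) and WT mTmG jejunum (t1, t6 and t7), all from C57BL/6 mice. Carmn is transcribed into a long non-coding RNA in smooth muscle, and mTmG is a fluorescent reporter allele that records Cre activity. Nuclei were profiled from colon alone, 1 library for each genotype. The sources used here do not give how, or in which cells, Carmn was removed, nor mouse ages, treatments or what the tags stand for. Nothing in the labels says that the libraries of a group came from separate animals, so p-values measure only the spread between these libraries, which may be technical.

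Bulk depth ranged from 24254905 to 44315104 counts per library, and levels are given as CPM, counts scaled to 1000000 per library after TMM normalisation. Carmn itself was not reduced under the bulk KO label. In colon it stood at 461, 304 and 718 CPM in the libraries labelled Carmn iKO (m1, t4, t6) and at 251, 171 and 351 CPM in WT (t1, t6, t7). In jejunum it stood at 996, 817 and 908 CPM (m1, t1, t4) and 240, 206 and 326 CPM (t1, t6, t7). The bulk groups are therefore called KO-labelled throughout, and every direction below rests on those labels. In the nuclei Carmn went with the label, at 2.10 unique molecular identifiers (UMIs) per 10000 in the KO library and 6.51 per 10000 in WT. All 10 smooth muscle markers were detected in each of the 12 bulk libraries, with sums of 34500 to 93000 CPM.

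The KO-labelled colon library t4 stood far from the other 11 for these genes. It had the highest CPM of the 12 libraries for 10 of 10 genes, against 12.7% of all tested genes, and was at least 2-fold above the next library for 9 of 10, against 1.75% of all tested genes. The genes were put together with this library's levels known, so these counts are a description. The colon fold changes of the 10 genes, and the medians of the gene lists, are given with and without that library.

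The interleukin-6 family signals through the shared receptor subunit gp130 to JAK kinases and STAT3, which switch on acute phase genes and Socs3, and the Socs3 protein then blocks the same receptors. Interleukin-1 and tumour necrosis factor act through NF-kappaB, which induces Il6, Ptgs2 and Nos2. In the gut wall, handling of the bowel or injury is known to activate muscularis macrophages, and the prostaglandins made by the Ptgs2 enzyme (cyclooxygenase-2) and the nitric oxide made by the Nos2 enzyme (inducible nitric oxide synthase) are known to reduce contraction of the muscle.

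Open chromatin separated Il6 and Ptgs2 from the other genes in the files of the nuclei. Each library of nuclei lists accessible regions called in that library alone, 35003 in WT and 26493 in KO. Il6 and Ptgs2 were the 2 of 10 genes with a listed region within 1000 bp of an annotated start, and they had one in both libraries. Across protein-coding genes 51.3% (WT) and 43.8% (KO) had such a region. The nearest listed region lay 2120 bp (Il33, WT) to 93718 bp (Nos2, KO) from a start for the other 8 genes.

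The 250 bases upstream of both starts, which lie inside those regions, are shown because they are the promoters that the chromatin data reach. Sequences are from RefSeq (GRCm38.p6), plus strand, and 9 of the 10 genes had an entry, Nos2 not being matched. Capitals mark matches, on either strand, to 6 sets of letters. They are GGGNNNNNCC for kappaB sites of NF-kappaB, TGANTCA for sites of the AP-1 factors, TGACGT for the core of the cAMP response element, TTGCNNAA for sites of C/EBP factors, TTCNNNGAA for sites of STAT factors, and the letters of the TATA box, TATAAA itself.
Il6, chr5:30012864-30013113: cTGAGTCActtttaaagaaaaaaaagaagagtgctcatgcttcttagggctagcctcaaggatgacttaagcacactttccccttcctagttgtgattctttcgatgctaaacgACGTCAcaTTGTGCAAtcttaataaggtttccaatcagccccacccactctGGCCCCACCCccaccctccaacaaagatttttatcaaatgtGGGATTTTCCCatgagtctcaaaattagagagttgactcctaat
Ptgs2, chr1:150099781-150100030: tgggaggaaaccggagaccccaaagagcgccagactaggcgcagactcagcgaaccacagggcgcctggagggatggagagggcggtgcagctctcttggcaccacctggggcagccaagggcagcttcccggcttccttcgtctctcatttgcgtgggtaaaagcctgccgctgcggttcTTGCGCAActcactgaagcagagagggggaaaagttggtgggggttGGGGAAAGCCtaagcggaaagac
The Il6 stretch holds 3 kappaB matches, 2 of them overlapping copies on opposite strands, and 1 match each to the AP-1, cAMP response element and C/EBP letters. The Ptgs2 stretch holds 1 kappaB and 1 C/EBP match, and a cAMP response element core begins 12 bases after the start, beyond the letters shown. Within 250 bases before to 50 after a start, all 32851 promoters of the table held kappaB letters in 50.8%, C/EBP in 10.8%, AP-1 in 7.81% and the cAMP response element core in 7.51%. Among the 9 matched genes, kappaB letters were in 6, C/EBP in 4 (Il6, Il33, Ptgs2 and Saa3), AP-1 in 3 (Il6, Il11 and Lif), TATA in 3 (Il1b, Tnf and Il33), the cAMP response element core in 2 (Il6 and Ptgs2) and STAT in 1 (Socs3). The TATA and STAT letters stood in 13.6% and 8.30% of all promoters. A match is a description of the letters only.

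The region at Il6 spanned chr5:30012718-30013895 in WT and chr5:30012742-30013830 in KO, and held 58 transposase cuts in each library. That is 20.6 per 1000000 cuts (13.7 to 29.8) in WT and 34.1 (22.7 to 49.3) in KO. These 95% intervals are exact Poisson limits on the number of nuclei with a cut, 28 in each library, scaled to cuts. The Ptgs2 region spanned chr1:150099418-150100319 in WT and chr1:150099531-150100936 in KO, with 94 and 98 cuts, or 33.4 (24.5 to 44.6) and 57.7 (42.7 to 76.3) per 1000000 cuts. These intervals, based on nuclei and not on single cuts, overlapped between the 2 libraries at both genes, at Ptgs2 only from 42.7 to 44.6. Overlap of 2 separate intervals does not show that the libraries were alike, and no interval of the ratio was computed. They cover counting error only, and the listed regions differ in length between libraries. The Ptgs2 cuts came from 46 WT and 49 KO nuclei. Smooth muscle-like cluster 0, described below, held 30 of the 94 WT cuts and 7 of the 98 KO cuts. These came from 15 of its 497 WT nuclei and 4 of its 104 KO nuclei. Smooth muscle-like cluster 2 held 4 of the WT cuts and 27 of the KO cuts, from 2 of 216 WT and 14 of 263 KO nuclei. The raw cuts do not compare the libraries, since these clusters differ in size between them. Per 1000000 cuts of the same cluster and library, the Ptgs2 region had 70.2 cuts in WT cluster 0 and 74 in KO cluster 0. In cluster 2 it had 21.4 in WT and 99 in KO. These rates rest on the few nuclei given above, and the difference between libraries was not tested.

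Il6 (ENSMUSG00000025746, chr5:30013114-30019981 in GRCm38) encodes the founding cytokine of its family. In colon it stood at 0.304, 16.9 and 0.0253 CPM in the KO-labelled libraries m1, t4 and t6, and at 0.278, 0.330 and 0.0780 CPM in WT t1, t6 and t7. Only the library t4 lay outside the WT range on the high side, and t6 lay below it. In jejunum Il6 stood at 2.59, 0.165 and 2.15 CPM in KO-labelled m1, t1 and t4, and at 0.515, 0 and 0.107 CPM in WT t1, t6 and t7, where the 0 allows up to 0.0873 CPM (3 counts). The jejunum libraries m1 and t4 were above all WT values and t1 was inside their range. In colon the KO-labelled minus WT difference was 4.59 on the log2 scale (SE 1.93, adjusted p = 0.315) with t4 and -0.47 (SE 1.44, adjusted p = 0.923) without it. In jejunum it was 3.01 (SE 1.88, adjusted p = 0.527).

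Il11 (ENSMUSG00000004371, chr7:4772373-4782859), a cytokine tied to fibroblast activation, showed the same single high colon library. It stood at 0.130, 8.15 and 0.304 CPM in KO-labelled colon (m1, t4, t6) and at 0.124, 0.302 and 0.234 CPM in WT colon (t1, t6, t7). The jejunum values lay between 0.158 and 0.710 CPM in KO-labelled and between 0.160 and 0.515 CPM in WT libraries, and they overlapped. Lif (leukaemia inhibitory factor, ENSMUSG00000034394, chr11:4257557-4272514) stood at 1.39, 44.4 and 2.18 CPM in KO-labelled colon and at 1.24, 2.94 and 1.64 CPM in WT colon. Outside t4 the highest Lif value of any library was 5.38 CPM, in KO-labelled jejunum m1. Without t4 the colon log2 fold changes went from 3.66 (SE 1.33) to -0.03 (SE 0.86) for Il11 and from 3.04 (SE 1.14) to -0.12 (SE 0.58) for Lif.

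Il1b (ENSMUSG00000027398, chr2:129364570-129371139) encodes interleukin-1 beta, a product of activated myeloid cells, and overlaps the antisense gene Il1bos, whose reads could not be told apart since the use of strand is not stated. Its colon levels were 3.69, 273 and 0.152 CPM in KO-labelled m1, t4 and t6 and 0.618, 1.79 and 0.273 CPM in WT t1, t6 and t7. The 3 KO-labelled values spanned both sides of the WT range. In jejunum it stood at 11.2, 0.879 and 2.90 CPM (KO-labelled m1, t1, t4) and 0.847, 1.02 and 0.213 CPM (WT t1, t6, t7). The log2 fold change was 6.65 (SE 2.15, adjusted p = 0.201) in colon, 1.09 (SE 1.29, adjusted p = 0.753) in colon without t4 and 2.83 (SE 1.91, adjusted p = 0.562) in jejunum.

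Tnf (ENSMUSG00000024401, chr17:35199381-35202007), tumour necrosis factor, stood at 0.824, 7.66 and 0.633 CPM in KO-labelled colon and at 0.803, 2.77 and 0.819 CPM in WT colon. In jejunum it was 1.52, 1.26 and 1.4 CPM in KO-labelled m1, t1 and t4, and 0.0736, 1.02 and 0.160 CPM in WT t1, t6 and t7. The jejunum groups did not overlap, whereas the colon groups did. The colon log2 fold change was 1.04 (SE 1.02, adjusted p = 0.705) with t4 and -1.01 (SE 0.89, adjusted p = 0.646) without it. The jejunum log2 fold change was 1.72 (SE 1.08, adjusted p = 0.528). A two-sided exact permutation test gave p = 0.1, the smallest that 3 against 3 libraries allow.

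Il33 (ENSMUSG00000024810, chr19:29925114-29960718) is an alarmin, a nuclear cytokine of barrier and stromal cells set free by damage. It was the 1 gene of the 10 that t4 did not lead by 2-fold: t4 had 57.7 CPM and KO-labelled jejunum t4 had 52.4 CPM. The other KO-labelled colon libraries had 13.5 (m1) and 5.92 (t6) CPM, and the WT colon libraries 13.7, 18 and 13.2 CPM. Library t6 was below every WT colon library and t4 above, so the groups overlapped. The colon log2 fold change was 0.78 (SE 0.64, adjusted p = 0.635) with t4 and -0.62 (SE 0.38, adjusted p = 0.489) without it. Jejunum levels were 38.1, 22.4 and 52.4 CPM (KO-labelled) and 24.1, 30.9 and 27.3 CPM (WT). WT colon was below WT jejunum with no overlap, at a log2 difference of -0.87 (SE 0.64, adjusted p = 0.650).

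Ptgs2 (ENSMUSG00000032487, chr1:150100031-150108227) stood at 13.7, 314 and 18.1 CPM in KO-labelled colon m1, t4 and t6 and at 12.1, 13 and 13.4 CPM in WT colon t1, t6 and t7. WT colon was tight, at 12.8 ± 0.665 CPM (SD, n = 3), and every KO-labelled library lay above it, m1 by a margin of 13.7 to 13.4 CPM. In jejunum Ptgs2 stood at 146, 44.4 and 54.4 CPM in KO-labelled m1, t1 and t4 and at 19.3, 32.4 and 21.2 CPM in WT t1, t6 and t7. Here too the groups did not overlap, with m1 the highest. The colon log2 fold change was 3.17 (SE 1.05, adjusted p = 0.210) with t4 and 0.31 (SE 0.44, adjusted p = 0.807) without it. In jejunum it was 1.74 (SE 0.99, adjusted p = 0.482), and 1.74 (SE 0.41, adjusted p = 0.084) when the model left out the colon library t4, whose spread all groups share. WT colon lay below WT jejunum with no overlap, at -0.92 (SE 0.98, adjusted p = 0.793) on the log2 scale.

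Nos2 (ENSMUSG00000020826, chr11:78920787-78960254) varied within groups as much as between them in colon. It stood at 16.5, 144 and 8.20 CPM in KO-labelled m1, t4 and t6 and at 12.7, 66.2 and 1.64 CPM in WT t1, t6 and t7. The 10 epithelial markers summed to 1750, 3650 and 83.5 CPM in these 3 WT libraries, in the same order as Nos2, and to 1140, 1280 and 2560 CPM in KO-labelled m1, t4 and t6, where the order differed. Their part in the Nos2 values was not tested. In jejunum Nos2 stood at 45.0, 58.9 and 5.07 CPM (KO-labelled m1, t1, t4) and 5.45, 2.80 and 1.20 CPM (WT t1, t6, t7), with t4 inside the WT range. The epithelial markers summed to 696, 863 and 401 CPM in these KO-labelled libraries, in the same order as Nos2. In the WT jejunum libraries they summed to 736, 295 and 665 CPM, where the order differed. Their part was not tested here either. The log2 fold change was 1.07 (SE 1.32, adjusted p = 0.778) in colon, -1.12 (SE 1.38) in colon without t4, and 3.54 (SE 1.47, adjusted p = 0.340) in jejunum.

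Saa3 (ENSMUSG00000040026, chr7:46711998-46715700) encodes serum amyloid A3, an acute phase protein made outside the liver. It stood at 1.13, 1750 and 28.9 CPM in KO-labelled colon m1, t4 and t6 and at 1.76, 3.82 and 2.38 CPM in WT colon. Libraries t4 and t6 were above every WT colon library and m1 below. In jejunum it stood at 68.6, 3.30 and 190 CPM (KO-labelled m1, t1, t4) and 7.99, 4.31 and 3.20 CPM (WT t1, t6, t7). Again 2 of 3 KO-labelled libraries were above all WT values. The log2 fold change was 7.79 (SE 2.32, adjusted p = 0.177) in colon, 2.49 (SE 1.44, adjusted p = 0.470) in colon without t4 and 4.09 (SE 1.96, adjusted p = 0.404) in jejunum. Saa1 and Saa2, its neighbours in the family, can share reads with it, so its count is uncertain to that extent.

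Socs3 (ENSMUSG00000053113, chr11:117966079-117970047) encodes the inhibitor that STAT3 induces, and had the smallest p of the 10 genes in colon with and without t4. It stood at 80.1, 495 and 53.8 CPM in KO-labelled colon m1, t4 and t6 and at 26.6, 24.7 and 27.2 CPM in WT colon t1, t6 and t7, a WT mean of 26.1 ± 1.32 CPM (SD, n = 3). All 3 KO-labelled colon libraries lay above all WT libraries of either tissue. In jejunum it stood at 85.6, 35.4 and 243 CPM (KO-labelled m1, t1, t4) and 26.3, 25.4 and 33.4 CPM (WT), with t1 just above the highest WT library. The log2 fold change was 3.0 (SE 0.86, adjusted p = 0.160) in colon, 1.36 (SE 0.60, adjusted p = 0.337) in colon without t4 and 2.10 (SE 0.83, adjusted p = 0.319) in jejunum.

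**Figure D1:**
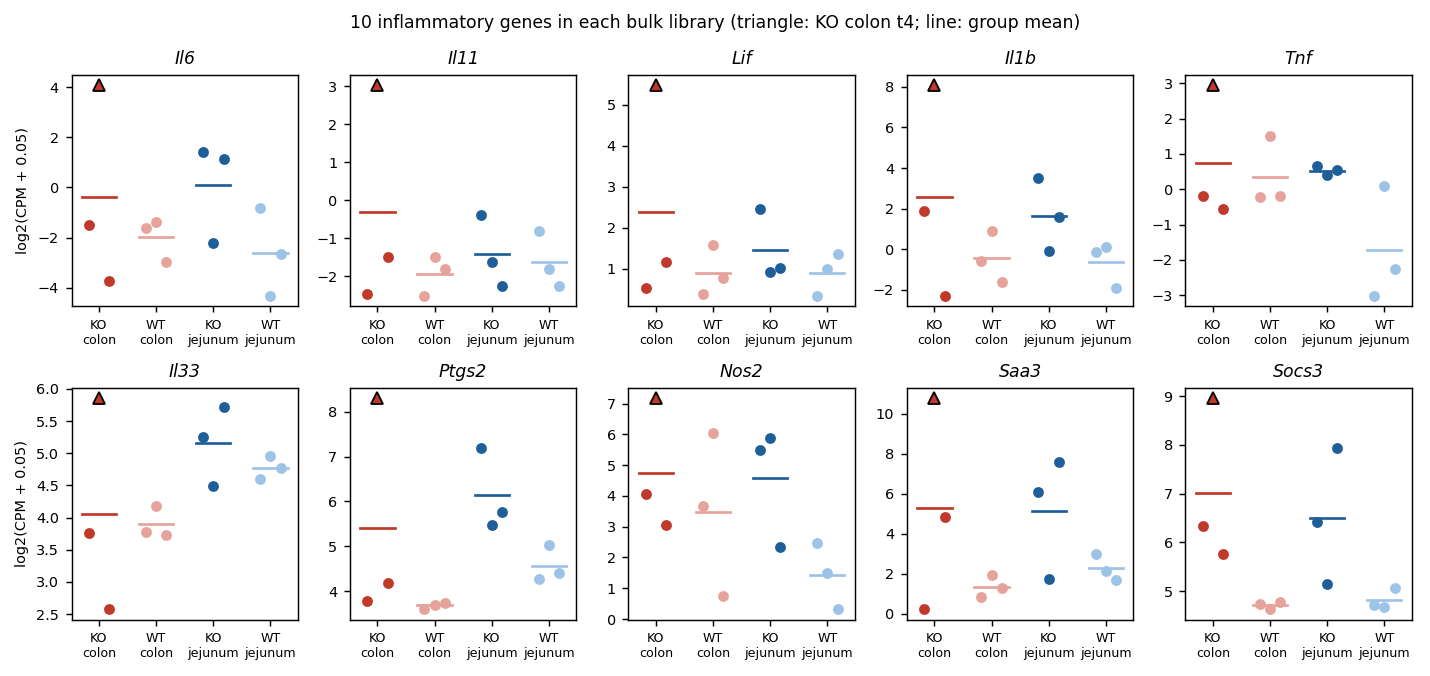
Level of each of the 10 genes in each of the 12 bulk libraries, as log2 of CPM plus 0.05 (vertical axis), by group (horizontal axis, KO as labelled). Points are libraries, lines are group means and the triangle is the KO-labelled colon library t4, which is the highest point in all 10 panels.

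No gene of the 10 passed the test in any of the 4 comparisons. In colon 0 of 10 were called by edgeR's quasi-likelihood test at an adjusted p under 0.05, where 0.388% of all tested genes were called. There 7 had an unadjusted p under 0.05, all higher, where 6.70% of all tested genes were higher at that threshold, and limma voom called 0 (0.455% of all genes). DESeq2 called 2, Saa3 (adjusted p = 0.000397) and Socs3 (adjusted p = 0.00276), where it called 5.01% of the genes to which it gave an adjusted p, and it gave no adjusted p for 5 of the 10, here and in each comparison below that uses all 12 libraries. Every KO-labelled library was above every WT library for 2 genes in colon, Ptgs2 and Socs3, against 8.79% of all tested genes. Without t4 edgeR called 0 of 10 against 0.180% of genes, 1 gene (Socs3) had an unadjusted p under 0.05 and was higher, as 7.06% of genes were, and DESeq2 and limma voom called 0, beside 4.54% and 0.116% of genes.

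The direction in colon rested on t4. All 10 fold changes were above 0 with that library, at a median log2 fold change of 3.10, where the median of all tested genes was 0.004. Without it 4 were above 0 and 6 below, at a median of -0.07 beside -0.02 for all genes. Leaving t4 out took Il6, Il11, Lif, Tnf, Il33 and Nos2 below 0.

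In jejunum 0 of 10 genes were called by edgeR, where 0.215% of all tested genes were called. There 2 had an unadjusted p under 0.05 (Nos2 and Socs3, both higher), where 7.52% of all tested genes were higher at that threshold. DESeq2 and limma voom called 0, beside 3.95% and 0.364% of genes. All 10 fold changes were above 0, at a median of 1.92 beside 0.02 for all genes. Every KO-labelled jejunum library was above every WT library for 3 genes, Tnf, Ptgs2 and Socs3, against 11% of all tested genes, and Ptgs2 and Socs3 did so in both tissues, against 2.90%. When the colon library t4 was left out of the shared model, 6 of 10 were higher at an unadjusted p under 0.05, beside 8.87% of all genes, and still 0 passed, where 0.796% of all genes passed.

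The change in colon did not pass as different from the change in jejunum for any gene. edgeR called 0 of 10 for that difference, beside 0% of all tested genes, with 0 at an unadjusted p under 0.05 (4.17% of all genes), and DESeq2 and limma voom called 0 (0.178% and 0% of all genes). With t4 the colon fold change was the larger for 8 of 10 genes, and without t4 it was the smaller for 10 of 10 (median difference 1.5 and -1.51 on the log2 scale). Between WT colon and WT jejunum edgeR called 0 of 10, beside 1.56% of all tested genes, with 0 at an unadjusted p under 0.05 (13.1% of all genes), and DESeq2 and limma voom called 0 (5.58% and 1.69% of all genes). In a fit of the 6 WT libraries alone 2 genes were lower in colon, Il33 (adjusted p = 0.0325) and Ptgs2 (adjusted p = 0.0498), where 2.78% of the genes tested in that fit were called lower.

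**Figure D2:**
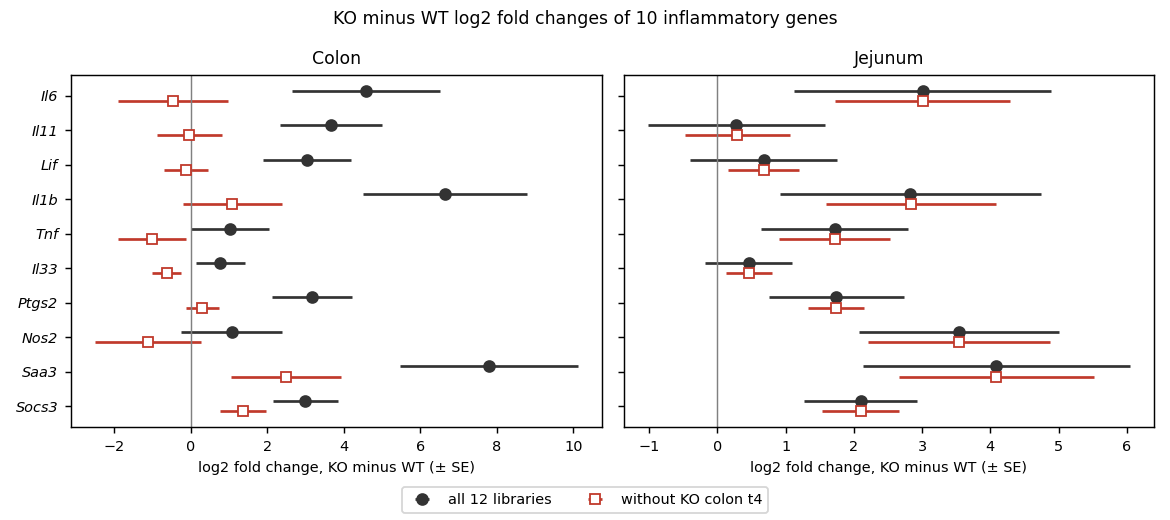
Log2 fold change of KO-labelled minus WT libraries with its standard error (horizontal axis) for the 10 genes in colon and jejunum, from all 12 libraries (filled circles) and without the colon library t4 (open squares). In colon 6 of the 10 squares lie below 0, and in jejunum all 20 points lie above it.

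Levels of different genes were compared per kb of exon, by group median. In WT colon Socs3 had 9.20 CPM per kb, Il33 4.75, Nos2 2.87, Ptgs2 2.83 and Saa3 0.913, and the other 5 genes were at or below 0.5. Neighbours such as Nos2 and Ptgs2 were not separated, given the span of Nos2 from 1.64 to 66.2 CPM. In WT jejunum Il33 (9.46) and Socs3 (9.10) differed by less than their spread over libraries, followed by Ptgs2 at 4.63 CPM per kb. In the KO-labelled groups the medians of Socs3 were 27.7 CPM per kb in colon and 29.6 in jejunum, and those of Saa3 11.1 and 26.3. The order of this pair was not separated in either tissue, since Saa3 spanned 1.13 to 1750 CPM in colon and 3.30 to 190 CPM in jejunum.

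The pathways around these genes were read through 9 gene lists of 113 genes, of which 109 were tested. In colon 3 of 109 were called higher, beside 0.115% of all genes, and 0 lower, and 0 were called in jejunum, beside 0.215% in either direction. In colon 0.388% of all genes were called in either direction. With at most 16 genes in a list, a count of 0 called therefore says little about that list. The called genes were Cebpd (log2 fold change 2.68, adjusted p = 0.0404) and Cebpb (2.15, adjusted p = 0.0432), transcription factors of the acute phase response, and Ptgs1 (1.33, adjusted p = 0.0432), the constitutive cyclooxygenase. Without t4 Ptgs1 passed (1.53, adjusted p = 0.0285), whereas Cebpd (2.45, adjusted p = 0.0868) and Cebpb (1.63, adjusted p = 0.0768) did not.

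These 3 genes were above WT in every KO-labelled colon library, not in t4 alone. Cebpb stood at 126, 270 and 109 CPM in KO-labelled colon and at 38.8, 34.5 and 40.3 CPM in WT colon, and t4 was its highest library, 2.01 times the next. Cebpd stood at 477, 690 and 440 CPM in KO-labelled colon and at 104, 75.2 and 72.1 CPM in WT colon, and t4 was again the highest, 1.45 times the next. Ptgs1 stood at 362, 268 and 509 CPM against 165, 128 and 161 CPM, with t4 the lowest of the KO-labelled libraries. In jejunum Ptgs1 stood at 332, 315 and 346 CPM against 115, 163 and 154 CPM.

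Among ligands and receptors of the interleukin-6 family, 0 of 11 tested genes were called in either tissue, with median log2 fold changes of 0.79 in colon, 0.31 in colon without t4 and 0.43 in jejunum. Osm (oncostatin M) had 26.3 CPM in t4 and at most 0.913 CPM in any other library. Its receptor gene Osmr stood at 143 CPM in t4, at 113 CPM in KO-labelled jejunum t4 and at 38.9 to 66.4 CPM in the other colon libraries. Il6ra, the interleukin-6 receptor gene, did not follow t4: it was at 46.0 CPM there and at 54.9 CPM in KO-labelled colon t6.

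Of 12 genes of JAK and STAT signalling 0 were called in either tissue, and the medians were 0.19 in colon, 0.27 in colon without t4 and 0.10 in jejunum. Stat3, which carries the interleukin-6 signal, stood at 377, 477 and 376 CPM in KO-labelled colon and 258, 248 and 320 CPM in WT colon. Those groups did not overlap, and the change was 0.57 on the log2 scale (SE 0.20, adjusted p = 0.232), and 0.45 (adjusted p = 0.356) without t4.

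The list of acute phase and STAT3-responsive genes had the largest number at an unadjusted p under 0.05, with 12 of 16 higher and 0 lower in colon and 10 of 16 higher and 1 lower in jejunum. At that threshold 6.70% and 7.52% of all tested genes were higher in these tissues. Its median was 1.86 in colon, 0.90 in colon without t4 and 1.82 in jejunum. Serpina3n, a serine protease inhibitor gene, stood at 163, 935 and 293 CPM in KO-labelled colon and at 28.4, 30.9 and 34.3 CPM in WT colon. In jejunum it stood at 628, 93.9 and 742 CPM against 23.7, 24.2 and 8.89 CPM, with no overlap in either tissue. The jejunum log2 fold change was 4.69 (SE 0.87, adjusted p = 0.0686), and it passed when the colon library t4 was left out (adjusted p = 0.0332). Lcn2 (lipocalin 2) and Timp1 (a metalloproteinase inhibitor) had 548 and 533 CPM in t4, 3.11 and 6.47 times the next library. For 11 of the 16 genes t4 was the highest library, against 12.7% of all tested genes. Saa1 and Saa2 were not among them, with log2 ratios of t4 to the highest other library of -1.34 and -1.08. Their log2 fold changes were 0.13 and 0.12 in colon and 4.31 and 5.76 in jejunum.

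Among interleukin-1 and TNF family genes 0 of 12 were called in either tissue, and t4 was the highest library for 8, against 12.7% of all tested genes. Il1a had 19.5 CPM in t4 and at most 0.851 CPM elsewhere, and Il1r2, the decoy receptor of neutrophils and macrophages, had 87.1 CPM in t4 and 17.8 CPM in KO-labelled jejunum m1. The median of this list went from 0.79 to -0.15 in colon without t4. Of 15 genes for NF-kappaB subunits and feedback, 0 were called in either tissue. In colon 14 had a fold change above 0, at a median of 0.56, and without t4 11 did, at a median of 0.16. In jejunum 14 did, at a median of 0.90. Zfp36, whose protein destroys the mRNA of Tnf, stood at 116, 192 and 134 CPM in KO-labelled colon and 60.6, 65.3 and 46.4 CPM in WT colon (log2 fold change 1.36, adjusted p = 0.0703, and 1.12, adjusted p = 0.125, without t4). Birc3 passed in jejunum without the colon library t4 (1.15, adjusted p = 0.0411, and 0.251 with it).

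Of 16 prostanoid genes Ptgs1 was the 1 called, in colon, and the colon median was 0.13, or -0.07 without t4. In jejunum Ptgs1 was at 1.20 on the log2 scale (adjusted p = 0.0745), and it passed there when the colon library t4 was left out of the model (adjusted p = 0.0293). Ptges, the inducible synthase that turns the product of Ptgs2 into prostaglandin E2, had 33.9 CPM in t4 and at most 6.66 CPM elsewhere. Of 10 genes of nitric oxide and arginine metabolism 0 were called, and the median in colon was 0.00, or 0.08 without t4. Arg1, the arginase of alternatively activated macrophages, had 357 CPM in t4, 35.2 times the next library.

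Neutrophil genes were high in t4. The 6 neutrophil markers summed to 625 CPM in t4 and to 1.01 to 41.4 CPM in the other 11 libraries, 5 of the 6 were at least 2-fold above the next library there, and Ly6g was not, at 11.5 CPM in t4 and 35.5 CPM in WT colon t6. S100a9 had 250 CPM in t4 and at most 4.87 CPM elsewhere. Of the 12 genes of the neutrophil list 9 were tested, and 0 were called in either tissue. For 7 of them t4 was at least 2-fold above the next library, against 1.75% of all tested genes. Camp, like Ly6g, was not highest in t4, and Mpo, Elane and Ngp did not pass the filter. The median log2 fold change of the list was 6.6 in colon, 0.02 in colon without t4 and 3.67 in jejunum. Of 8 monocyte genes t4 was the highest library for 6 and at least 2-fold above the next for 3, 0 were called, and their median log2 fold change in colon went from 1.49 to -0.83 without t4. The 10 macrophage markers summed to 1420 CPM in t4 and 1780 CPM in KO-labelled jejunum m1, and to 198 to 989 CPM in the others, and t4 was the highest library for 3 of them and 2-fold above the next for 0. The 8 fibroblast markers summed to 12900 CPM in t4 and 2700 to 7530 CPM in the others. For 4 of these 8 t4 was the highest library, for 2 by at least 2-fold, and their median log2 fold change in colon was 0.05. Over all tested genes t4 was the highest library for 12.7% and at least 2-fold above the next for 1.75%. No neutrophil, macrophage or fibroblast marker was at 0 in t4. Their part in the levels of the 10 genes was not tested, and in bulk RNA a larger number of such cells and more RNA per cell cannot be told apart.

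**Figure D3:**
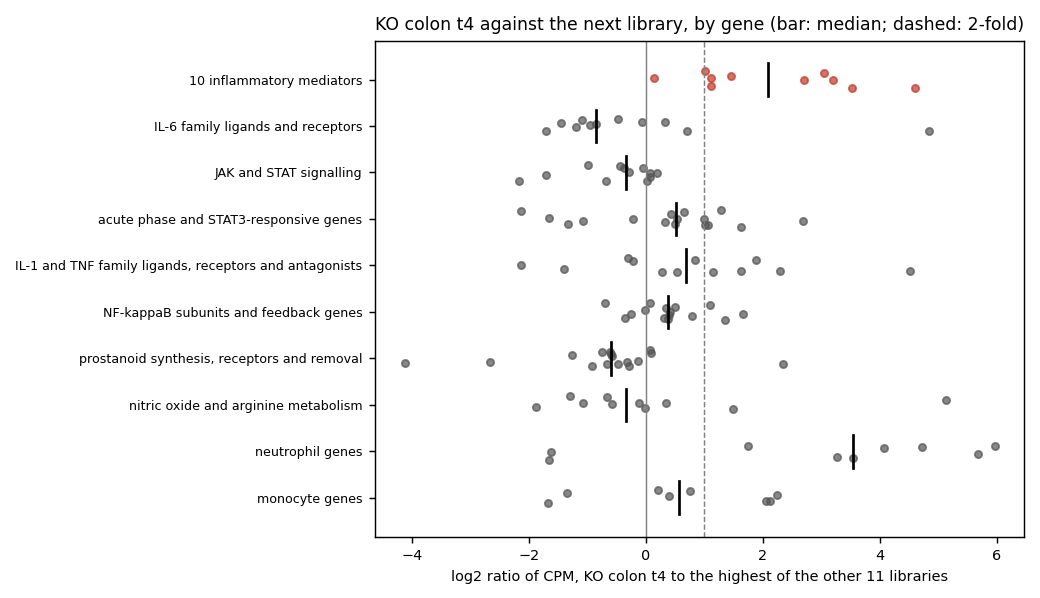
Log2 ratio of CPM in the KO-labelled colon library t4 to the highest of the other 11 bulk libraries (horizontal axis) for the 10 genes and for the genes of 9 lists, each point 1 gene and each bar a median. Neutrophil genes reach the highest ratios (Retnlg, 62.7 times the next library), and the JAK and STAT list has no gene past the dashed line at 2-fold.

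Likeness of pattern was measured as the mean absolute difference of log2 CPM over 12 libraries, each gene centred on its median. The genes most like Il6 were Fpr1 (0.64), Slfn1 (0.86), Fpr2 (0.89), Ccr1 (0.90) and C430002N11Rik (0.92), of which Fpr1 and Fpr2 encode formyl peptide receptors and Ccr1 a chemokine receptor. Those most like Ptgs2 were Lmcd1 (0.42), Grem1 (0.50), Sox11 (0.51), Nes (0.52) and Msr1 (0.55). Over the 11 libraries without t4, 1 of the 5 genes remained for Il6 (Fpr1) and 3 of the 5 for Ptgs2 (Grem1, Lmcd1 and Nes).

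The nuclei gave the cell types in which the genes were read, in 3127 WT and 1936 KO nuclei with median depths of 1419 and 1683 UMIs. Clusters were built without the 10 genes, so these genes did not themselves shape the clusters. Genes that vary with them were kept, so their levels by cluster are not independent of the clustering. Of 21 clusters 18 could be named from markers. The libraries shared 6 cell barcodes. With 1 library per genotype there is no test of the genotype. All intervals are exact 95% intervals, Poisson for levels and binomial for shares. Those of ratios are exact binomial limits on the KO share of the UMIs of both libraries, turned into a ratio. All these intervals cover counting error only and treat UMIs as independent, which UMIs of 1 nucleus are not.

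Over all nuclei 5 of 10 genes were at least 2-fold higher per UMI in the KO library with at least 20 UMIs in 1 library (Il6, Lif, Il1b, Ptgs2 and Saa3), where 8.48% of 14225 genes were. Il6 had 35 UMIs in KO and 1 in WT (ratio 45.6, 7.66 to 1850), and Il1b had 28 and 2 (ratio 18.2, 4.6 to 158). Lif had 32 and 7 (ratio 5.95, 2.58 to 16.0), and Saa3 had 75 and 15 (ratio 6.51, 3.71 to 12.2). Very few UMIs in WT make the first pair of ratios uncertain. Ptgs2 had 330 and 147 UMIs, a ratio of 2.92 (2.40 to 3.58) per UMI sequenced. Nos2 went the other way, with 30 and 113 UMIs and a ratio of 0.346 (0.223 to 0.521), where 3.48% of genes were at least 2-fold lower. Il33 (315 and 285 UMIs, ratio 1.44) and Socs3 (95 and 75, ratio 1.65) stayed under 2-fold, and Tnf (11 and 9) and Il11 (6 and 3) had fewer than 20 UMIs in each library.

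Ptgs2 was read chiefly in smooth muscle-like nuclei, which held 61.2% (52.8 to 69.1, exact binomial) of its UMIs in WT and 54.2% (48.7 to 59.7) in KO, against 23.4% and 21.9% of all UMIs. These nuclei formed clusters 0 and 2, and most WT nuclei of the pair were in cluster 0 (497 and 216) and most KO nuclei in cluster 2 (104 and 263). Neither cluster had a smooth muscle marker among its top 10 genes, and cluster 2 had Abcc9, a pericyte marker, there. Of the 10 smooth muscle markers, 10 were at least 2-fold higher in cluster 0 than in other nuclei, and 9 in cluster 2. The clusters are compared by number. In cluster 0 Ptgs2 stood at 0.605 UMIs per 10000 (0.485 to 0.747) in WT and 2.16 (1.69 to 2.71) in KO, a ratio of 3.56 (2.58 to 4.92). In cluster 2 it had 3 UMIs in WT and 105 in KO, a ratio of 17.6 (5.86 to 86.7).

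The Ptgs2 UMIs were concentrated in few nuclei. In cluster 0, 55 of 497 WT and 21 of 104 KO nuclei had any, with up to 15 and 23 UMIs in 1 nucleus. Enteric glia-like nuclei of clusters 1 and 9 had 0 Ptgs2 UMIs in WT and 2 in KO. The unnamed cluster 6 had Myh11 and Tagln among its top genes and a median of 446 UMIs. It had 20 Ptgs2 UMIs in KO, from 7 of 77 nuclei with up to 6 in 1, and 0 in WT. The exact lower limit of the ratio was 9.37, and the ratio against a floor of 3 counts in WT was 12.6. That limit takes UMIs of 1 nucleus as independent, which they are not, so it is too high as a bound. Fibroblast-like cluster 13 had 27 UMIs in KO, from 7 nuclei, and 2 in WT (1.21 per 10000 in KO, ratio 4.87, 1.22 to 42.3). Mesothelial-like cluster 3 had 32 in KO and 11 in WT (ratio 2.78, 1.37 to 6.12), whereas mesothelial-like cluster 5 had 28 and 9 (ratio 0.943, 0.432 to 2.27).

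Of the Il6 UMIs in KO nuclei, 17 of 35 (48.6%, 31.4 to 66.0) were in fibroblast-like clusters 10 and 13, though these held 6.49% of all KO UMIs. The single WT Il6 UMI lay in mesothelial-like cluster 5. In KO cluster 10 the 11 UMIs came from 5 nuclei, 1 of which had 7. Smooth muscle-like clusters 0 and 2 had 0 Il6 UMIs in either library, which allows up to 0.0875 per 10000 in KO cluster 0, and macrophage-like cluster 8 had 0. Lif had 6 UMIs from 4 nuclei in the same cluster 10 of the KO library (0.302 per 10000, 0.111 to 0.658), an interval that overlapped that of mesothelial-like cluster 3 (0.123, 0.04 to 0.287), and 8 UMIs in unnamed cluster 11 (0.065 per 10000).

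Il1b was a macrophage reading, with 25 of 28 KO UMIs (89.3%, 71.8 to 97.7) and both WT UMIs in cluster 8. The 25 UMIs came from 9 of 190 nuclei, 1 of which had 12. Cluster 8 held 190 of 1936 KO nuclei and 70 of 3127 WT nuclei, so the KO library held more macrophage-like nuclei as well. Within cluster 8 the ratio was 4.46 (1.11 to 38.9).

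Saa3 in the KO library lay mostly in mesothelial-like nuclei (69.3%, 57.6 to 79.5), with 47 UMIs in cluster 5 from 12 nuclei, 1 of which had 20. WT had 3 UMIs in that cluster, a ratio of 4.75 (1.53 to 23.8). Mesothelial cells line the outer surface of the gut. Mesothelial-like nuclei also held 40.7% and 40.0% of the Il33 UMIs (WT and KO) and 32.0% and 48.4% of the Socs3 UMIs. They were 13.7% of WT and 19.5% of KO nuclei, and held 6.85% of all WT UMIs and 16.0% of all KO UMIs. The shares of the 2 libraries are therefore set against unlike bases. In cluster 3 Il33 was lower in the KO library, at 38 UMIs against 88 and a ratio of 0.413 (0.275 to 0.611), whereas in mesothelial-like cluster 5 it had 88 and 28 UMIs and a ratio of 0.952 (0.616 to 1.51). Il33 was also at 2.74 per 10000 (KO) and 1.85 (WT) in lymphatic endothelial-like cluster 19, which held 42 and 45 nuclei. Unnamed cluster 11 held 21.6% (KO) and 28.1% (WT) of the Il33 UMIs.

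Nos2 was an epithelial reading in both libraries, with 77.0% (68.1 to 84.4) of its UMIs in WT and 93.3% (77.9 to 99.2) in KO. Epithelial-like nuclei were 15% of WT and 8.01% of KO nuclei, and held 8.64% and 4.29% of all UMIs. Within epithelial-like cluster 4 Nos2 stood at 1.96 per 10000 (1.52 to 2.48) in WT and 1.30 (0.839 to 1.91) in KO, a ratio of 0.661 (0.401 to 1.06), so the difference was not detectable at this depth there. Macrophage-like cluster 8 had 0 Nos2 UMIs in both libraries.

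**Figure D4:**
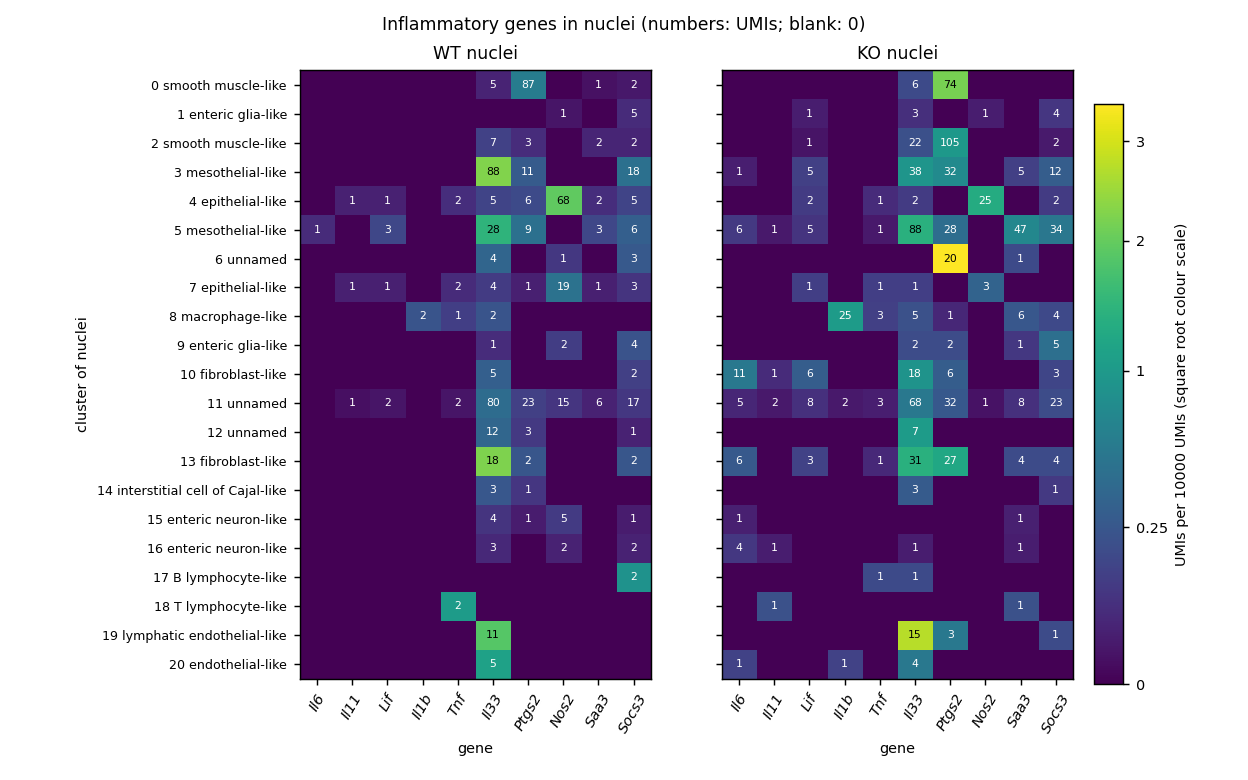
UMIs of each gene (columns) in each of 21 clusters of nuclei (rows) for the WT and KO colon libraries, with the UMI count printed in the cell and the colour giving UMIs per 10000 UMIs of that cluster on a square root scale. In the KO library Ptgs2 is brightest in unnamed cluster 6 (3.43 per 10000) and smooth muscle-like cluster 0 (2.16), then fibroblast-like cluster 13 (1.21) and smooth muscle-like cluster 2 (0.970). Further bright cells are Nos2 in epithelial-like cluster 4, Il1b in macrophage-like cluster 8 and Il33 in mesothelial-like, fibroblast-like and lymphatic endothelial-like clusters.

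The bulk and nuclei libraries are separate, and nothing in the labels says whether the KO nuclei share an animal with a bulk library. Il6, Il1b, Lif, Ptgs2 and Saa3 were the genes at least 2-fold higher in the KO nuclei. In bulk colon without t4 their log2 fold changes were -0.47, 1.09, -0.12, 0.31 and 2.49, none of which passed.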

How the data were processed

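Gene-level raw counts of the 12 bulk libraries were deposited in a single table and, for each library of nuclei, as a matrix of counts of genes and accessible regions. The submitters' processing notes name STAR 2.0.4b, featureCounts 1.4.5, edgeR, Cell Ranger and GRCm38, and the file headers name cellranger-arc 2.0.0. The sources used here do not give the annotation or the strand setting. Of 40757 table entries, 276 repeats were dropped. The bulk test was edgeR 4.0.16 under R 4.3.3 (filterByExpr, TMM, robust quasi-likelihood), in 1 model of all 12 libraries with a common estimate of spread. Benjamini-Hochberg adjustment of the two-sided p-values ran over all 20886 genes tested, at a threshold of 0.05. The script was tested on simulated data.

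Single values used two-sided exact permutation tests, which with 3 against 3 cannot go below 0.1. DESeq2 1.42.0 and limma 3.58.1 were alternatives. Same-tag libraries of colon and jejunum did not deviate together (correlations of 0.10, -0.008 and 0.061 in WT and -0.163 and -0.095 in KO-labelled libraries), so tags were not used as pairs. No library of a group repeated another within sampling noise.

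All gene values of the nuclei were even and were divided by 2 to give UMIs, an inference from the values. Nuclei needed 200 genes and at most 10% mitochondrial UMIs, which left 3127 of 3476 WT and 1936 of 2164 KO barcodes. Clusters came from 30 components of 2000 variable genes without the 10 genes (leidenalg 0.10.2, resolution 1). Doublets were scored, not removed (78 WT and 30 KO nuclei marked). Unnamed cluster 11 had a median of 7318 UMIs in 89 WT and 58 KO nuclei. It held 42 of the marked WT nuclei and 15 of the marked KO nuclei, so gene levels there may mix cell types.

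The 10 genes and the lists were chosen with earlier results of these data known. List genes were named by a rule: those past the threshold, those with the smallest p in each tissue, and those with the highest ratio of the colon library t4 to the next.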

Additional observations from a re-analysis of the deposited data

How the results depend on the processing

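The count of genes called, 0 of 10 in each comparison, was also 0 under RLE size factors, total counts, no filter, limma voom and the removal of any 1 library (range 0 to 0). A filter of 1 CPM in every library of a group left 7 of the 10 for testing (not Il6, Il11 and Il1b) and called 0. It was 2 with DESeq2 in colon, and 2 in WT colon against WT jejunum with only the 6 libraries compared. The replicate block on tag gave 1 there (Il33, adjusted p = 0.0465), although the tags do not pair the libraries, and 0 for the difference between tissues. Without the colon library t4 the count in colon was 0 under each of these scalings, filters and tools (for 7 genes under the 1 CPM filter), run after the data were seen.

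Single fold changes, none past the threshold, changed sign as follows, and the cause was not tested. Removing each library in turn moved the colon values from -0.47 to 5.21 (Il6), -0.03 to 4.24 (Il11), -0.12 to 3.60 (Lif), -1.01 to 1.93 (Tnf), -0.62 to 1.28 (Il33) and -1.12 to 3.01 (Nos2), the lowest always without the KO-labelled t4. Jejunum values ranged from -0.48 to 0.86 (Il11) and -0.02 to 0.93 (Lif), the lowest without KO-labelled m1. The differences between tissues ranged from -3.48 to 2.23 (Il6), -0.32 to 4.19 (Il11), -0.80 to 3.10 (Lif), -1.75 to 5.25 (Il1b), -2.73 to 0.23 (Tnf), -1.08 to 0.84 (Il33), -1.43 to 2.22 (Ptgs2), -1.59 to 5.05 (Saa3) and -0.74 to 1.96 (Socs3), the lowest always without t4. WT colon minus WT jejunum ranged from -0.42 to 1.97 (Il6), -0.80 to 0.11 (Il11), -0.46 to 0.23 (Lif) and -0.64 to 0.78 (Il1b).

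Without both libraries tagged t4, an alternative chosen after seeing the data, the colon values were -0.45 (Il6), -0.01 (Il11), -0.10 (Lif), -0.99 (Tnf), -0.61 (Il33) and -1.10 (Nos2). The differences between tissues were then -3.16 (Il6), -0.67 (Il11), -0.99 (Lif), -1.99 (Il1b), -0.72 (Il33), -1.61 (Ptgs2) and -0.25 (Saa3), and Lif in WT was -0.03. With limma voom the difference between tissues was -2.32 for Il6 and -0.31 for Il33, and Lif in WT was -0.01. Lif in WT was -0.02 with no filter and -0.01 with the replicate block, which also gave differences between tissues of -0.48 (Il6) and -0.33 (Saa3). For the nuclei, other resolutions (0.5 and 2), a minimum of 500 genes and the removal of doublet-scored nuclei moved no value beyond its counting interval, and the narrower window of 250 before to 50 after a start gave the same 2 genes with a region. Depth limits Il6, Il11 and Tnf, which were near or below 1 CPM in most bulk libraries.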
